A study of Rattus norvegicus with 2 samples.

Results

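The cells described here are goblet cells, the mucus-secreting cells of the intestinal lining, in the colon of rat fetuses at day E19.5 of gestation. Droplet-based single-cell RNA sequencing had been run on 1 library of fetal colon from obese mothers and 1 library of fetal colon from control mothers. Both libraries carry the wild-type genotype label, and the number and sex of the fetuses, the stretch of colon taken and the rat strain are not given in the labels. The tissue had been minced, digested with collagenase and pancreatic enzymes, filtered and treated to lyse red blood cells, so the cells compared are those that came through that procedure. Each group is a single library, so no difference between maternal obesity and control has a replicate check and none was tested. Intervals given below are 95% intervals of counting error in these libraries only, and they do not cover differences between fetuses, litters or preparations.

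Goblet cells were chosen by a gate on measured UMIs (unique molecular identifiers, each counting 1 captured RNA molecule). Barcodes with fewer than 500 detected genes, or with mitochondrial genes above 20% of their UMIs, were left out. It counted as epithelial if at least 4 of the 7 genes Epcam, Cldn7, Cldn4, Cldn3, Elf3, Vil1 and Lgals4 were detected and Col1a1 and Col3a1 together held at most 3 UMIs. An epithelial cell was called a goblet cell if Muc2 and Fcgbp together reached 5 per 10,000 UMIs. The shallowest goblet cell held 674 UMIs in maternal obesity and 698 in control. At such depth 1 UMI of either gene is enough to reach this limit. Cells in which Defa8, Defa9 and Defal1 together reached 5 per 10,000 were set aside as defensin-rich cells. Cells in which 3 or more of the 6 genes Chga, Chgb, Pyy, Gcg, Sst and Scg2 had at least 2 UMIs were set aside as endocrine cells. This gave 923 goblet cells among 14115 kept barcodes and 18617 barcodes in all, with 180 goblet cells from maternal obesity and 743 from control. The epithelial cells that met none of the 3 further criteria, 1354 in maternal obesity and 2444 in control, are called the other epithelial cells. Because these gene values chose the cells, their levels below are descriptions.

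Goblet cells store gel-forming mucins in large granules and release them to build the mucus layer that separates the epithelium from the gut contents. The mucin protein is folded and cross-linked in the endoplasmic reticulum, densely decorated with O-linked sugars in the Golgi and packed under calcium and low pH. In mouse, the lineage is set by low Notch signalling and the transcription factor Atoh1, and maturation depends on Spdef.

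To show the DNA just upstream of the genes that carry this identity, the 250 bases before the RefSeq start site are given for 6 cargo and folding genes. Sequences are from RefSeq on build GRCr8 and read 5′ to 3′ on the transcribed strand. Muc2 encodes the gel-forming mucin of the colon (chr1:206228785-206229034, plus strand), and Fcgbp a mucus protein cross-linked to it (chr1:92502519-92502768, plus strand). Agr2 is the disulfide isomerase needed to make Muc2 (chr6:58435658-58435907, plus strand), and Tff3 is the trefoil peptide of goblet granules (chr20:9199334-9199583, minus strand). Retnlb is a secreted resistin-like protein (chr11:65448320-65448569, minus strand), and Clca1 is a secreted metalloprotease that processes mucus (chr2:236624715-236624964, minus strand). Capitals mark matches on either strand to TATAAA, the E-box CAGCTG, the ETS core CCGGAT, the forkhead motif TGTTTAC, the CDX motif TTTATNG or the unfolded-protein-response core TGACGTG.
Muc2: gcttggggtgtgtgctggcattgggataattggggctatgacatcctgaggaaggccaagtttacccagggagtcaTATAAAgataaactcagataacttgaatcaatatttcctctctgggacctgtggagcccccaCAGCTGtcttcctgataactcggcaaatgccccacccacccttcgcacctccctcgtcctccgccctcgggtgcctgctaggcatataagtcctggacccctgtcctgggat
Fcgbp: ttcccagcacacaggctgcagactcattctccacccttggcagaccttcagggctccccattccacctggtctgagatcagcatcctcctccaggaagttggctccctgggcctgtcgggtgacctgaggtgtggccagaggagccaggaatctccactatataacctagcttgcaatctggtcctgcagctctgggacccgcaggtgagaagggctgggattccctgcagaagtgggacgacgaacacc
Agr2: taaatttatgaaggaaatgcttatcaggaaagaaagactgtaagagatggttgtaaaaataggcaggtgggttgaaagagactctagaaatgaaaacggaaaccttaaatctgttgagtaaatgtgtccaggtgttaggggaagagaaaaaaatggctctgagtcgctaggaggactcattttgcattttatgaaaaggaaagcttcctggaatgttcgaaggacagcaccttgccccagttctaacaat
Tff3: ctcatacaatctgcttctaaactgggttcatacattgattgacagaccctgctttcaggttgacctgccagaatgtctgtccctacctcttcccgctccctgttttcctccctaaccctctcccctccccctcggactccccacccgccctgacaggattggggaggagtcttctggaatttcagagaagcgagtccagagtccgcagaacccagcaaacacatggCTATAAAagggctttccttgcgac
Retnlb: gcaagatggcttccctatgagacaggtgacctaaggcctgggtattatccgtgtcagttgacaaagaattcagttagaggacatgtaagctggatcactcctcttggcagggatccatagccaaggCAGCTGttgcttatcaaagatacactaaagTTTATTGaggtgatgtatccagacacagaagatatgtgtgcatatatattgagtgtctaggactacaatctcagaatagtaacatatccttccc
Clca1: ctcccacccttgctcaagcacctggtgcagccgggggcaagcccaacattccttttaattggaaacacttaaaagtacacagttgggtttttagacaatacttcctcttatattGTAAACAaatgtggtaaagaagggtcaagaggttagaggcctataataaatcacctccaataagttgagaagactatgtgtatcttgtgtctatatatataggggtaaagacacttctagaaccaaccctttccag

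The E-box CAGCTG occurred 112 bases upstream of the Muc2 start and 124 bases upstream of the Retnlb start, and 11.9% of 27457 RefSeq promoters of the same length hold it. TATAAA began 174 bases upstream in Muc2 and 23 bases upstream in Tff3, against 13.1% of all promoters. In Tff3 this TATAAA overlaps a CDX match on the opposite strand, and a further CDX match lay 94 bases upstream in Retnlb; 10.1% of promoters hold that motif. Clca1 held the forkhead motif on the opposite strand 136 bases upstream, a motif present in 3.25% of promoters. No match to any of the 6 motifs lay in the Fcgbp and Agr2 windows, and none of the 6 windows held CCGGAT, found in 5.47% of promoters, or TGACGTG, found in 1.59%. The Muc2 window ends at a start site 3260 bases from the annotated gene start and the Fcgbp window at one 308 bases away, while the other windows end at the gene start.

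Goblet cells made up 11.3% of the epithelial cells in maternal obesity (180 of 1597, exact binomial interval 9.76 to 12.9) and 22.8% in control (743 of 3258, 21.4 to 24.3). As a share of all kept barcodes they were 2.49% in maternal obesity and 10.8% in control, and epithelial cells themselves were 22.1% of kept barcodes in maternal obesity and 47.4% in control. The goblet share was the lower in maternal obesity under stricter gates too, at 6.64% against 15.0% in control with 10 per 10,000 and 3.01% against 8.29% with 20 per 10,000. After each cell was thinned to 3000 UMIs the shares were 10.1% in maternal obesity and 22.1% in control. With Fcgbp alone as the gate they were 7.64% in maternal obesity and 13.9% in control. Fewer goblet cells in the tissue, fewer recovered by the digestion and a different stretch of colon cannot be told apart with 1 library a group.

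Depth differed between the libraries in the direction opposite to cell number. The median goblet cell held 16665 UMIs and 3854 genes in maternal obesity, against 11524 UMIs and 3084 genes in control. Other epithelial cells were deeper than goblet cells in both, with medians of 22278.5 UMIs in maternal obesity and 15774 in control. Summed over cells, the goblet class held 3859583 UMIs in maternal obesity and 9525848 in control, so rare transcripts are counted less precisely in maternal obesity. Mitochondrial UMIs were 3.36% of the median goblet cell in maternal obesity and 3.19% in control. The libraries shared 130 barcodes, 80 of them kept, and no barcode was a goblet cell in both; 3 goblet barcodes of maternal obesity and 11 of control occurred in the other library.

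The gate separated a continuous range rather than a gap. The summed Muc2 and Fcgbp level in goblet cells ran from 5.03 to 199 per 10,000 in maternal obesity (median 13.0) and from 5.00 to 223 in control (median 14.1). Just inside the limit, between 5 and 6 per 10,000, lay 21 cells in maternal obesity and 52 in control. Just outside, between 4 and 5, lay 26 cells in maternal obesity and 89 in control. Muc2 was detected in 74.4% of goblet cells in maternal obesity and 82.8% in control, and Fcgbp in 91.7% and 90.7%. Fcgbp without any Muc2 UMI marked 46 goblet cells in maternal obesity and 128 in control, and Muc2 without Fcgbp marked 15 and 69. The median cell had 3.18 Muc2 UMIs per 10,000 in maternal obesity and 7.60 in control, while its Fcgbp level was 6.73 and 6.26.

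**Figure D1:**
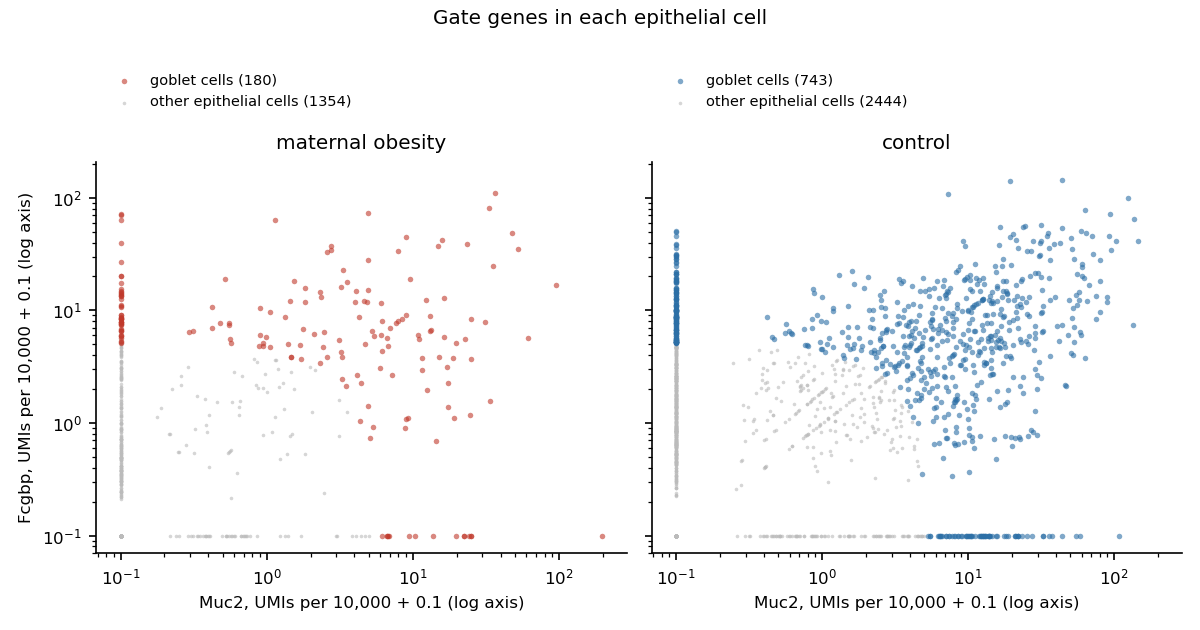
Each point is 1 epithelial cell, with its Muc2 level on the x axis and its Fcgbp level on the y axis (UMIs per 10,000 plus 0.1, log axes), for maternal obesity on the left (180 goblet and 1354 other epithelial cells) and control on the right (743 and 2444). Points on the lowest x or y value have no UMI of that gene, and goblet cells lie beyond a summed level of 5, with no empty band between them and the other epithelial cells.

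The label was checked against the 5 markers that the gate did not use: Retnlb, Klk1, Best2, Agr2 and Tff3. Levels are CPM, a gene's UMIs scaled to a class total of 1e6 UMIs in 1 library, and a gene counted as called here when its CPM differed at least 2-fold with at least 50 UMIs over both classes. All 5 were at least 2-fold higher in goblet cells than in other epithelial cells in both libraries, against a background of 6.42% of 11400 genes called higher in maternal obesity and 7.88% of 11882 in control. The shares called lower were 5.04% in maternal obesity and 11.7% in control. Since the gate was chosen on these cells, this describes the class and is not independent evidence for it.

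Agr2 was at 7069.9 CPM in goblet cells and 919 CPM in other epithelial cells of maternal obesity, and at 8236 and 2161 CPM in control. Tff3 was at 6195 CPM in goblet cells and 612 CPM in other epithelial cells of maternal obesity, and at 7482 and 1274 CPM in control. These were the most abundant of the 7 markers, and both were also present in epithelial cells outside the gate. Retnlb was at 732 CPM in goblet cells and 22.6 CPM in other epithelial cells of maternal obesity, and at 845 and 69.3 CPM in control. A single goblet cell supplied 25.7% of the Retnlb UMIs in maternal obesity, so the level there rests partly on 1 cell. Klk1, a tissue kallikrein protease, was at 126 CPM in goblet cells and 9.82 CPM in other epithelial cells of maternal obesity, and at 278 and 40.3 CPM in control. Best2, a bestrophin anion channel that marks colonic goblet cells in mouse, was at 61.4 and 7.68 CPM in maternal obesity and at 238 and 40.0 CPM in control. The smallest of these folds was 3.81 (3.78 to 3.85), for Agr2 in control, and the largest 32.4 (30.0 to 35.1), for Retnlb in maternal obesity.

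Muc2 itself was at 489 CPM in goblet cells and 8.44 CPM in other epithelial cells of maternal obesity, and at 873 and 23.9 CPM in control. Fcgbp was at 805 and 34.1 CPM in maternal obesity and at 674 and 56.0 CPM in control. The gate captured 71.0% of the epithelial Muc2 UMIs in maternal obesity and 86.4% in control, and 62.9% and 69.1% of the Fcgbp UMIs. Muc2 is listed in the count tables under an older identifier that RefSeq gives as its synonym. The 5 markers outside the gate together summed to 14184 CPM in goblet cells of maternal obesity and 17079 CPM in control. In other epithelial cells they summed to 1571 CPM in maternal obesity and 3585 CPM in control, and in fibroblast-gated cells to 73.3 and 137 CPM.

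Markers of other cell types were summed over the genes that the gate did not use. The 9 such enteroendocrine markers summed to 17.6 CPM in goblet cells of maternal obesity and 48.5 CPM in control, against 2199 and 1290.3 CPM in the endocrine cells. Hormone genes had set the endocrine cells apart, so that gap follows in part from the gate. In other epithelial cells these markers summed to 24.2 CPM in maternal obesity and 94.0 CPM in control. Of 14 tuft cell markers, 8 were at 0 in goblet cells of maternal obesity and 6 in control, among them the tuft regulator Pou2f3, the channel Trpm5 and the cytokine Il25 in both. The 7 fibroblast markers summed to 37.3 CPM in goblet cells of maternal obesity and 17.7 CPM in control, against 3632 and 1749.8 CPM in fibroblast-gated cells. Those cells were chosen by Col1a1 and Col3a1, and other epithelial cells held 120 CPM in maternal obesity and 99.6 CPM in control. Other lists had higher sums in goblet cells than in the other epithelial cells, and a sum can rest on few members. The 13 absorptive cell markers summed to 1375 CPM in goblet cells and 391 CPM in other epithelial cells of maternal obesity, and to 1021 and 266 CPM in control. Their median log2 ratio of goblet to other epithelial cells was −0.076 in maternal obesity and −0.66 in control, so the median gene was not higher. The 10 stem and progenitor markers summed to 454 CPM in goblet cells and 195 CPM in other epithelial cells of maternal obesity, and to 618 and 325 CPM in control. For these the median log2 ratio was 0.17 in maternal obesity and −1.08 in control. The 8 defensin cell markers summed to 277 CPM in goblet cells and 66.8 CPM in other epithelial cells of maternal obesity, and to 421 and 63.5 CPM in control. In the defensin-rich cells they summed to 569 CPM in maternal obesity but only 19.7 CPM in control. They thus did not mark that class in control. There Itln1 (198 CPM) and Mptx1 (199 CPM) led the goblet sum, with 0 and 1 UMI in defensin-rich cells. The part of these lists in the results below was not tested. Haemoglobin and other erythroid genes summed to 4012 CPM in goblet cells of maternal obesity and 2486 CPM in control, and other epithelial cells held 21145 and 14472 CPM. By the sum of the 5 goblet markers outside the gate the defensin-rich cells were the closest class, at 12246 CPM in maternal obesity and 7885 CPM in control.

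Across all genes, 505 of 11263 were at least 2-fold higher in goblet cells than in other epithelial cells in both libraries (4.48%), and 369 were at least 2-fold lower in both (3.28%). Apart from Kcnma1, those described next were among the 20 with the highest lower bound of the fold in both libraries. Gate, haemoglobin, ribosomal, mitochondrial, sex-linked and unnamed genes were left out of this ranking. Clca1 was at 188 CPM in goblet cells and 4.17 CPM in other epithelial cells of maternal obesity, a 45.2-fold difference (37.9 to 54.1). In control it was at 266 CPM in goblet cells and 13.8 CPM in other epithelial cells, a 19.3-fold difference (17.7 to 21.1). Itln1, a lectin that binds microbial sugars, was 28.5-fold higher in maternal obesity (55.4 against 1.95 CPM) and 40.2-fold higher in control (198 against 4.92 CPM). In maternal obesity 1 cell supplied 39.3% of the Itln1 UMIs. Retnla, a relative of Retnlb, was 31.9-fold higher in maternal obesity and 37.0-fold higher in control, from 50 and 655 goblet UMIs. Those of maternal obesity lay in 17 cells, with 28% of them in 1 cell.

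Rep15, a partner of the trafficking GTPase Rab15, was 27.1-fold higher in maternal obesity (16.8 to 45.2) and 16.1-fold higher in control (12.7 to 20.5). Rab3b, a GTPase of regulated secretion, was 15.4-fold higher in maternal obesity and 9.07-fold higher in control, and Ptprn2, a protein of dense-core vesicles, 14.5-fold in maternal obesity and 7.79-fold in control. Lrrc26, an auxiliary subunit of the BK potassium channel, was 22.8-fold higher in maternal obesity and 9.03-fold higher in control, and the channel's own subunit Kcnma1 was 15.3-fold higher in maternal obesity and 7.35-fold higher in control. The secreted trypsin inhibitor Spink1 was at 916 CPM in goblet cells of maternal obesity and 1689.8 CPM in control, above other epithelial cells by 15.6-fold in maternal obesity and 9.06-fold in control. Tnfrsf11b, the decoy receptor osteoprotegerin, was 16.1-fold higher in maternal obesity and 8.44-fold higher in control, and the pentraxin Mptx1 14.4-fold in maternal obesity and 7.78-fold in control. The sugar-modifying enzymes B3gnt6 (11.8-fold in maternal obesity and 8.20-fold in control) and Chst4 (11.5-fold in maternal obesity and 8.96-fold in control) make the core 3 O-glycan and a sulfated sugar. Sval1, Bcas1, the gut calpain Capn9 and the membrane mucin Muc4 were also on the list, with Klk1, Retnlb and Tff3. In goblet cells of maternal obesity Mptx1 was detected in 19 cells, with 28.5% of its UMIs in 1 cell. Sval1 was detected in 16 cells there, with 32.8% of its UMIs in 1 cell. Klk1, Mptx1 and the blood-group enzyme Abo3 named below belong to families of closely related rat genes, and their counts could have been divided among the copies, so their levels are uncertain.

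**Figure D2:**
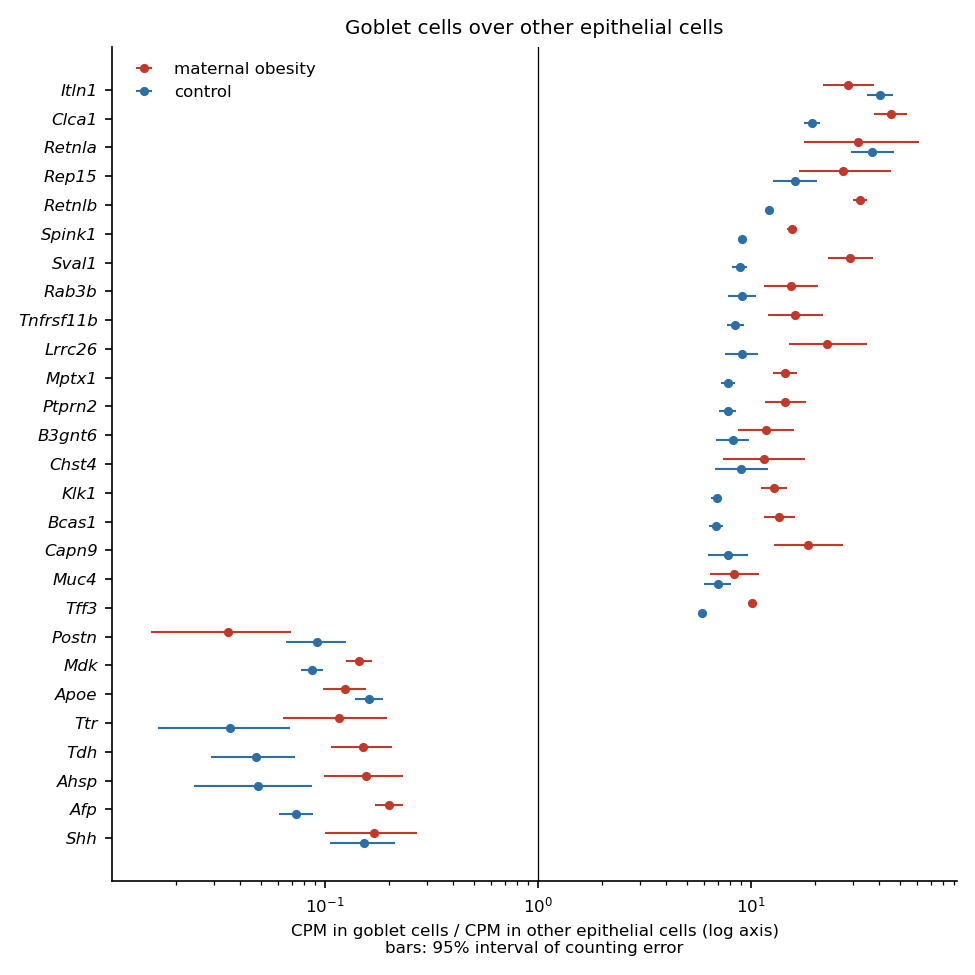
CPM in goblet cells divided by CPM in other epithelial cells (x axis, log scale). Drawn are 19 of the 20 genes named as higher and 8 of the 10 named as lower by the bound of the interval. Maternal obesity is above control for each gene, and bars show the 95% interval of counting error. Most of the higher genes show the larger fold in maternal obesity, while Itln1 (28.5 in maternal obesity and 40.2 in control) and Retnla (31.9 in maternal obesity and 37.0 in control) show the larger fold in control; Ccl5 and Fxyd2 are not drawn because a class had no UMI.

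The level of the markers outside the class differed between the libraries too. In other epithelial cells, the maternal obesity level was 0.425 of the control level for Agr2, 0.480 for Tff3, 0.325 for Retnlb, 0.243 for Klk1 and 0.192 for Best2. All 5 were thus lower in other epithelial cells of maternal obesity, beside the larger goblet folds there.

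The 10 lower genes with the firmest fold in both libraries were taken by the same rule, with the same genes left out. Haemoglobin genes, left out by it, held 0.421% of goblet UMIs and 2.12% of other epithelial UMIs in maternal obesity. In control they held 0.286% and 1.46%. Postn, a matrix protein of mesenchyme, was 28.4-fold lower than in other epithelial cells in maternal obesity and 10.9-fold lower in control. Mdk, the growth factor midkine, was 6.91-fold lower in maternal obesity (54.2 against 374 CPM) and 11.5-fold lower in control (28.8 against 330.5 CPM). The fetal plasma proteins Afp (4.99-fold in maternal obesity and 13.7-fold in control) and Ttr (8.62-fold in maternal obesity and 27.9-fold in control), the lipid carrier Apoe (8.05-fold in maternal obesity and 6.22-fold in control) and the enzyme Tdh (6.65-fold in maternal obesity and 21.2-fold in control) were lower in both libraries. So was Shh, the hedgehog ligand of gut epithelium, 5.91-fold in maternal obesity and 6.54-fold in control. Ahsp, which stabilises alpha-globin in red cell precursors, was 6.45-fold lower in maternal obesity and 20.6-fold lower in control, beside the erythroid sums given above, and its part in the result was not tested. Ccl5, a chemokine of lymphoid cells, had no UMI in goblet cells of either library; taking 3 counts as the limit of the summed class, it was at least 18.2-fold lower in maternal obesity and at least 8.43-fold lower in control. That call in maternal obesity rests on which cells entered the class: with the gate applied after thinning to 3000 UMIs, the log2 ratio was 3.96 (3.56 to 4.37), so Ccl5 was higher. Fxyd2, a subunit of the sodium pump, had no UMI in goblet cells of maternal obesity, which makes it at least 4.59-fold lower on the same limit.

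The mucus cargo list held 19 genes in the tables. Of the 11 that were outside the gate and reached 50 UMIs in maternal obesity, 8 were at least 2-fold higher in goblet cells and 1 lower, with a median log2 ratio of 3.74. In control 10 of 11 were higher and none lower, with a median of 2.79, against −0.04 and −0.06 over all genes. The shares of all genes at least 2-fold higher were 6.42% in maternal obesity and 7.88% in control. Zg16, a lectin that binds Gram-positive bacteria, was 20.6-fold higher in maternal obesity and 8.72-fold higher in control, although at only 29.0 and 5.46 CPM. Spink4, a small inhibitor stored in goblet granules, was 13.5-fold higher in maternal obesity and 4.70-fold higher in control, at 10.6 and 3.04 CPM. Pigr, the receptor that carries IgA across the epithelium, was 26.8-fold higher in maternal obesity and 7.35-fold higher in control from 28 and 68 goblet UMIs. Lypd8, a protein that keeps flagellated bacteria from the colonic surface, was abundant in goblet cells (1267 CPM in maternal obesity and 2373 CPM in control) but above other epithelial cells by only 1.57-fold in maternal obesity and 2.11-fold in control. The stomach mucins were nearly absent: Muc5ac had no UMI in goblet cells of either library, and Muc6 had 1 UMI in maternal obesity and none in control. Muc5b was counted 5 and 32 times, at 1.30 CPM in maternal obesity and 3.36 CPM in control. Tff1, the stomach trefoil peptide, had 2 UMIs in goblet cells of maternal obesity and 76 in control, and 46.1% of the control UMIs came from 1 cell. Tff2 had 2 UMIs in maternal obesity and none in control, and Reg3g none in either. Wfdc2, a secreted protease inhibitor, was 1.44-fold higher in maternal obesity and 1.54-fold higher in control.

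Of 4 membrane mucins tested, which stay anchored in the apical surface, 2 were at least 2-fold higher in maternal obesity and all 4 in control. Over all genes the shares higher were 6.42% in maternal obesity and 7.88% in control. Muc13 was the most abundant, at 439 CPM in goblet cells and 259 CPM in other epithelial cells of maternal obesity, and at 639 and 274 CPM in control. Muc1 was 4.79-fold higher in maternal obesity and 6.18-fold higher in control, and Muc4 8.34-fold in maternal obesity and 6.98-fold in control.

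Of 47 mucin O-glycosylation genes tested in maternal obesity, 30 were at least 2-fold higher in goblet cells and 2 lower, with a median log2 ratio of 1.60, against 6.42% of all genes higher. In control 27 of 48 were higher and 3 lower, with a median of 1.16, against 7.88% of all genes higher. The initiating transferases, which attach the first N-acetylgalactosamine, were led by Galnt12. It was at 354 CPM in goblet cells and 55.9 CPM in other epithelial cells of maternal obesity, and at 523 and 147 CPM in control. Galnt6 was 8.52-fold higher in maternal obesity and 4.10-fold higher in control, and Galnt5 7.33-fold in maternal obesity and 3.55-fold in control. C1galt1, which builds core 1, was 4.83-fold higher in maternal obesity and 3.12-fold higher in control, and Gcnt3, a core 2 and core 4 branching enzyme, 5.96-fold in maternal obesity and 5.34-fold in control. Fut2, the fucosyltransferase of the secretor blood group, was 8.19-fold higher in maternal obesity and 3.78-fold higher in control. B3gnt7, which extends sugar chains, was at 165 CPM in goblet cells of maternal obesity and 505 CPM in control, above other epithelial cells by 3.39-fold in maternal obesity and 2.56-fold in control.

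Of 33 folding genes of the endoplasmic reticulum, 15 were at least 2-fold higher and none lower in maternal obesity (median log2 ratio 0.96), and 11 were higher and none lower in control (0.73), beside the same shares of all genes. Ern2, the epithelial form of the IRE1 stress sensor, was 10.9-fold higher in maternal obesity (8.49 to 14.1) and 4.11-fold higher in control (3.63 to 4.65). Txndc5, a disulfide isomerase, was 4.19-fold higher in maternal obesity and 2.39-fold higher in control, and Xbp1, the transcription factor that IRE1 activates, 2.65-fold in maternal obesity and 2.37-fold in control. Hspa5, the chaperone BiP, was the most general of these, at 1128 CPM in goblet cells and 581 CPM in other epithelial cells of maternal obesity, and at 1209 and 729 CPM in control. Genes of transport between the endoplasmic reticulum and the Golgi differed less: 5 of 37 were at least 2-fold higher in maternal obesity and 4 in control, with medians of 0.49 and 0.45. All genes gave 6.42% higher in maternal obesity and 7.88% in control. Kdelr3, which returns chaperones to the endoplasmic reticulum, was 4.86-fold higher in maternal obesity and 3.37-fold higher in control, and Sec24d, a coat protein for large cargo, 4.06-fold in maternal obesity and 2.27-fold in control.

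Of 19 genes of granule docking and release, 10 were at least 2-fold higher in goblet cells of maternal obesity and 11 in control, and none was lower in either. Across all genes 6.42% were higher and 5.04% lower in maternal obesity, and 7.88% and 11.7% in control. Sytl2, which tethers granules through Rab27a, was 17.4-fold higher in maternal obesity (11.8 to 25.8) and 4.28-fold higher in control (3.50 to 5.22). Rab27a was 8.08-fold higher in maternal obesity and 3.93-fold higher in control, and Anxa13, a membrane-binding annexin of gut epithelium, 5.89-fold in maternal obesity and 4.94-fold in control.

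Among 23 tested transcription factors of the goblet and intestinal lineages, 11 were at least 2-fold higher in goblet cells of maternal obesity and none lower, and in control 9 were higher and 1 lower. The shares of all genes were 6.42% higher and 5.04% lower in maternal obesity, and 7.88% and 11.7% in control. Atoh1 was at 132 CPM in goblet cells and 14.7 CPM in other epithelial cells of maternal obesity, and at 126 and 32.4 CPM in control. Spdef was at 316 and 36.2 CPM in maternal obesity and at 454 and 121 CPM in control. Creb3l1, a membrane-bound regulator of secretory capacity, was the most abundant of this group, at 498 and 83.9 CPM in maternal obesity and 694 and 214 CPM in control. Creb3l4 was 9.46-fold higher in maternal obesity and 4.54-fold higher in control, Klf4 4.37-fold in maternal obesity and 3.24-fold in control, and Foxa3 4.72-fold in maternal obesity and 2.84-fold in control. Gfi1, which in mouse separates goblet and Paneth cells from endocrine cells, was 14.5-fold higher in maternal obesity and 2.35-fold higher in control from 50 and 71 goblet UMIs. The epithelial factor Ehf was 3.35-fold higher in maternal obesity and 2.04-fold higher in control. The hepatocyte nuclear factor Hnf4a (1.11-fold in maternal obesity and 1.06-fold in control) and the caudal factor Cdx1 (1.19-fold in maternal obesity and 1.14-fold in control), which are active across intestinal epithelium, were near 1, and Gata4, a factor of the small intestine, had no UMI in goblet cells of either library. Cdx2, which sets intestinal identity, was lower than in the other epithelial cells, at 0.876 of their level in maternal obesity and 0.676 in control. Sox9, a factor of crypt progenitors, was at 0.915 of their level in maternal obesity and 0.839 in control. Neurog3, which commits cells to the endocrine lineage, was 3.49-fold higher in maternal obesity and 4.61-fold lower in control, but its goblet UMIs came from 4 and 3 cells, with 73.3% and 76.9% of them in 1 cell.

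The Notch ligands that secretory cells present to their neighbours were detected at low levels. Dll1 was at 6.74 CPM in goblet cells and 2.19 CPM in other epithelial cells of maternal obesity, and at 7.35 and 5.08 CPM in control. Dll4 was 5.52-fold higher in maternal obesity and 3.53-fold higher in control, and the receptor Notch1 was 2.01-fold lower in maternal obesity and 2.55-fold lower in control. The Notch target Hes1 was not low: it was at 697 CPM in goblet cells of maternal obesity and 575 CPM in control, which was 1.02 times the level of other epithelial cells in maternal obesity and 0.926 times in control. Over the list of 17 tested genes, 3 were at least 2-fold higher and 2 lower in maternal obesity, and 1 higher and 3 lower in control. Beside this, 6.42% of all genes were higher and 5.04% lower in maternal obesity, and 7.88% and 11.7% in control.

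Ion and water transport genes were mixed: 7 of 19 tested were at least 2-fold higher and 1 lower in maternal obesity, and 8 of 22 were higher and 6 lower in control. For all genes the shares were 6.42% higher and 5.04% lower in maternal obesity, and 7.88% and 11.7% in control. The sodium, potassium and chloride cotransporter Slc12a2, which loads secreting cells with chloride, was 2.87-fold higher in maternal obesity and 2.46-fold higher in control. The chloride channel Cftr was lower, at 0.627 of the other epithelial cells in maternal obesity and 0.426 in control. Guca2a, the peptide guanylin that drives fluid secretion, was at 773 CPM in goblet cells and 117 CPM in other epithelial cells of maternal obesity, and at 723 and 135 CPM in control. The carbonic anhydrases Car1 and Car4 of mature absorptive cells had no UMI in goblet cells of either library.

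Goblet cells differed among themselves along the gate score, so they were divided by their summed Muc2 and Fcgbp level at 10, 20 and 50 per 10,000. From 5 to 10 there were 74 cells in maternal obesity and 253 in control, and from 50 upwards 17 and 82. Cells of high score were shallow, with a median of 2707 UMIs in maternal obesity and 2558.5 in control in the highest group, against 24744.5 and 15076 in the lowest, so the 17 cells of the highest group in maternal obesity hold few UMIs. Best2, in order from the lowest to the highest group, was at 45.4, 58.3, 145 and 137 CPM in maternal obesity and at 164, 258, 361 and 476 CPM in control. It was higher in control in each of the 4 groups. Tff3 was at 4817, 6397, 11191 and 16220.0 CPM in maternal obesity and at 5154, 8392, 11178 and 13479 CPM in control, lower in maternal obesity in the first pair of groups and higher in the last.

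Agr2 peaked before the top, at 14608 CPM in maternal obesity and 10822 CPM in control in the group from 20 to 50, with 9357 and 8069 CPM above 50. The O-glycosylation list summed to 3926, 4916, 7634 and 7344 CPM in maternal obesity and to 5374, 6654, 7699.5 and 10149.8 CPM in control. Spdef was at 227, 358, 647 and 526 CPM in maternal obesity and at 374, 478, 597 and 639.96 CPM in control. The 21 proliferation genes summed to 2621, 2434, 1337 and 1967 CPM in maternal obesity and to 1580.5, 758, 485 and 544 CPM in control. They were thus lowest in the group from 20 to 50 in both libraries and higher again above 50, a group of 17 cells in maternal obesity and 82 in control. Mki67 alone was at 200.5, 257, 109 and 297 CPM in maternal obesity, with no common direction, and at 117, 76.3, 44.0 and 49.5 CPM in control. Epithelial cells outside the class with no UMI of either gate gene held 3461 and 3069 CPM of them.

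**Figure D3:**
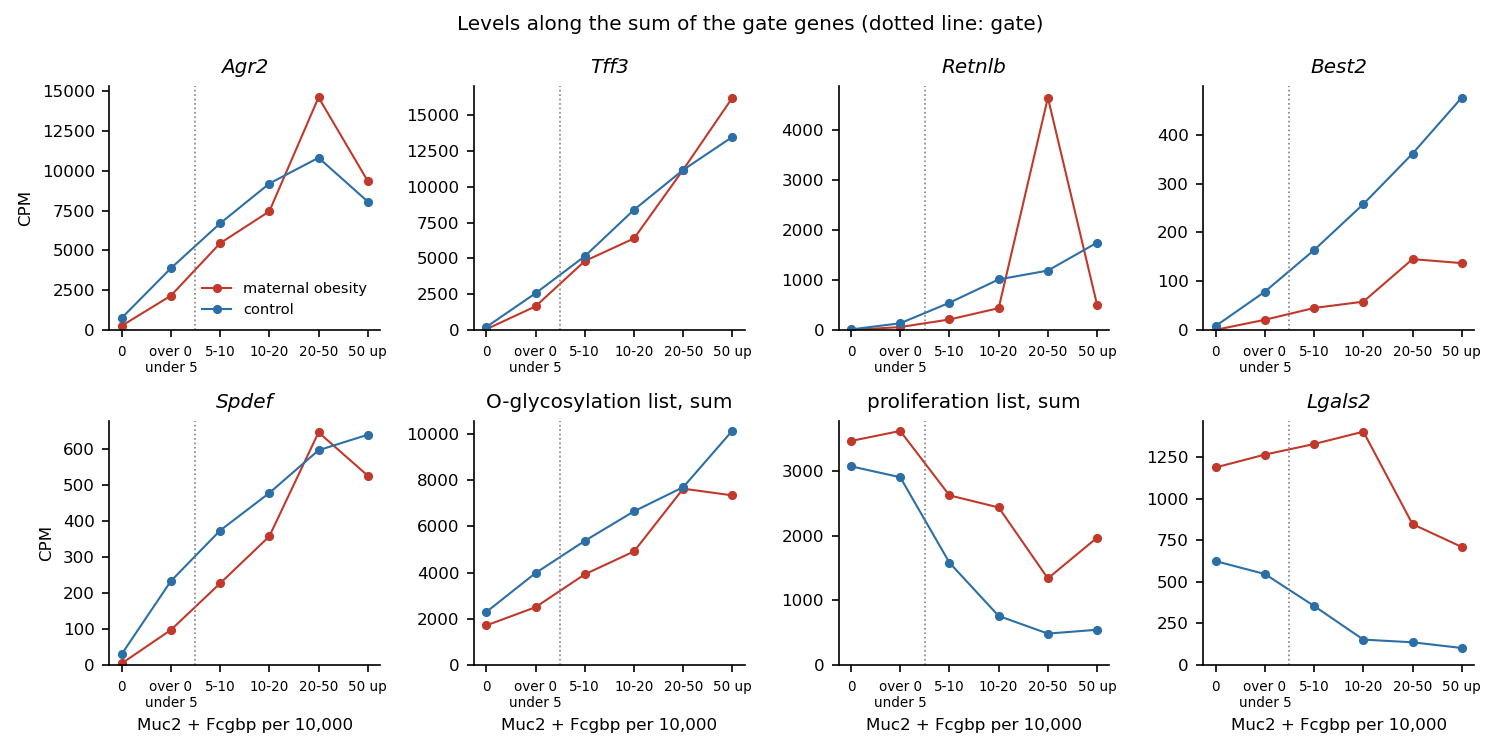
CPM of 6 genes and the summed CPM of 2 gene lists (y axes, each from 0) in epithelial cells grouped by summed Muc2 and Fcgbp per 10,000 (x axis), with the dotted line at the gate of 5, for maternal obesity and control. Tff3 overlaps between the libraries, Best2 is higher in control in every group, and proliferation genes and Lgals2 are higher in maternal obesity in every group; the Retnlb point of 4648 CPM in maternal obesity comes from 31 cells.

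Within goblet cells some pairs of the markers outside the gate went together more than others. Spearman's rho across the 180 cells of maternal obesity and the 743 of control was 0.60 and 0.65 for Agr2 with Klk1, 0.56 and 0.60 for Agr2 with Tff3, 0.64 and 0.54 for Klk1 with Best2, and 0.50 and 0.51 for Agr2 with Best2. Retnlb with Klk1 was less alike, at 0.59 in maternal obesity and 0.18 in control. Tff3 with Retnlb was at 0.17 and 0.081, and Tff3 with Best2 at 0.028 and 0.29. The gate gene Fcgbp was negative with Agr2, at −0.24 in maternal obesity and −0.20 in control. It was so too with Klk1 (−0.33 and −0.17), Best2 (−0.33 and −0.17) and Retnlb (−0.31 and −0.11). With Tff3 it was at 0.16 in both, and with Muc2 at −0.31 and −0.046. The gate bounds the sum of Muc2 and Fcgbp from below. These cells share a library and differ in depth, and the values are descriptions.

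Goblet cells of maternal obesity were then set against those of control. Among 9719 genes with at least 50 UMIs over both sums, 14.8% were at least 1.5-fold higher in maternal obesity and 10.7% at least 1.5-fold lower, and the median gene differed by 0.06 on the log2 scale. Every count below is to be read against these shares. In the other epithelial cells 9.21% of 12444 genes were at least 1.5-fold higher and 10.4% lower. With the gate at 20 per 10,000 the balance between libraries turned, with 462 genes at least 1.5-fold higher in goblet cells of maternal obesity and 716 lower, against 1442 and 1036 at 5 per 10,000.

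Of the 5 markers outside the gate, none was at least 1.5-fold higher and 2 were lower. Best2 was 3.87-fold lower in maternal obesity (3.39 to 4.45), with UMIs in 46 cells of maternal obesity and 436 of control. Klk1 was 2.20-fold lower, detected in 72 cells of maternal obesity and 448 of control. Agr2 was at 0.858 of the control level, Tff3 at 0.828 and Retnlb at 0.866. After thinning to 3000 UMIs, Best2 was detected in 13.6% of goblet cells in maternal obesity and 45.1% in control, and Klk1 in 23.6% and 45.8%; unthinned, the shares were 25.6% and 58.7% for Best2 and 40.0% and 60.3% for Klk1. Of fibroblast-gated cells, thinned in the same way, 0.0711% in maternal obesity and 0.172% in control held a Best2 UMI, and 0.0711% and 0.345% a Klk1 UMI. The share with Agr2 was 93.6% in maternal obesity and 99.0% in control after thinning, and in fibroblast-gated cells it was 12.2% in maternal obesity and 21.7% in control. Of the gate genes, described without comparison of their totals because the gate fixes their sum from below, Muc2 was at 0.560 of the control CPM and Fcgbp at 1.19.

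Cargo genes differed in both directions, with 3 of 12 tested at least 1.5-fold higher in maternal obesity and 5 lower. The 3 higher were Zg16 (5.32-fold, 3.79 to 7.54, from 112 UMIs in maternal obesity and 52 in control), Spink4 (3.49-fold, from 41 UMIs in maternal obesity and 29 in control) and the lectin Reg4. Reg4 was at 57.8 CPM in goblet cells of maternal obesity and 1.68 CPM in control, a 34.4-fold difference (20.7 to 61.2), with 223 UMIs in 35 cells and 16 UMIs in 8 cells. It was far higher in the defensin-rich cells, at 375 CPM in maternal obesity and 17.2 CPM in control, and it was at 4.33 and 0.389 CPM in other epithelial cells. Defa8 and Defa9, 2 of the defensins of the gate, were at 14.3 and 14.0 CPM in goblet cells of maternal obesity and at 4.09 and 0.945 CPM in control, and their part in the Reg4 result was not tested. The 5 lower were Itln1 (3.57-fold), Klk1, Lypd8 (1.87-fold), Wfdc2 (0.594 of control) and Tff1, whose UMIs are given above. Clca1 was at 0.708 of the control level. Among the membrane mucins, Muc1 was 2.11-fold lower in maternal obesity, Muc4 1.74-fold lower and Muc13 1.46-fold lower.

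Goblet transcription factors showed no common direction: of 23 tested, 5 were at least 1.5-fold higher in maternal obesity and 3 lower, with a median log2 ratio of 0.05. Atoh1 was at 132 CPM in maternal obesity and 126 CPM in control, a ratio of 1.05 (0.941 to 1.16). Spdef was at 316 CPM in maternal obesity and 454 CPM in control, a ratio of 0.696 (0.652 to 0.741), and in cells with at least 20 per 10,000 of the gate genes its log2 ratio was 0.05. Klf4, which promotes goblet maturation in mouse colon, was 1.84-fold lower in maternal obesity (207 against 381 CPM). Creb3l4 was 1.53-fold lower and Foxa1 1.67-fold lower; the first was higher in cells with at least 20 per 10,000 (log2 ratio 0.12), and the second was higher when each cell had equal weight (0.15). The 5 higher were Cdx1 (1.81-fold), Cdx2 (1.62-fold), Gfi1 (1.74-fold), Nr5a2 (2.09-fold) and Neurog3, which rests on the few cells given above.

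In the O-glycosylation list 3 of 42 tested genes were at least 1.5-fold higher in maternal obesity and 12 lower, with a median log2 ratio of −0.42 that became 0.063 in cells with at least 20 per 10,000. B3gnt7 was 3.06-fold lower (165 against 505 CPM) and the sulfotransferase Chst5 2.80-fold lower (46.9 against 131 CPM). St3gal1, a sialyltransferase, was 4.94-fold higher (42.5 against 8.61 CPM), and it was higher still in defensin-rich cells, at 137 CPM in maternal obesity and 78.8 CPM in control. Folding genes differed little, with 1 of 33 higher and 3 lower and a median of −0.19. Txndc5 was at 618 CPM in maternal obesity and 619.6 CPM in control. Agr3, a relative of Agr2, was 1.86-fold lower and Pdia5 2.55-fold lower. Secretory transport genes differed least, with none of 37 higher, 2 lower and a median of −0.05, and granule genes had none of 17 higher and 4 lower (−0.10).

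Ion transport genes were lower in maternal obesity more often than higher, at 10 and 5 of 18 tested, with a median of −0.66. Slc12a2 was 1.83-fold lower (276 against 504 CPM), and Aqp3, a water and glycerol channel, 3.37-fold lower (35.8 against 121 CPM). The epithelial sodium channel subunit Scnn1a was at 6.74 CPM in maternal obesity and 11.3 CPM in control. Aqp8, a water channel of absorptive cells, was 6.88-fold higher (23.8 against 3.46 CPM). Krt20, a keratin of surface cells, was 2.21-fold higher (429 against 194 CPM), and by 2.25-fold in other epithelial cells.

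All 21 proliferation genes were at least 1.5-fold higher in goblet cells of maternal obesity, against 14.8% of all genes. Their median log2 ratio was 1.27, and in other epithelial cells it was 0.27 with 1 of 21 at least 1.5-fold higher. Mki67, a protein of cycling cells, was at 211 CPM in maternal obesity and 89.4 CPM in control, from UMIs in 80 and 200 cells. Mcm3, a subunit of the replicative helicase, showed the largest of the ratios quoted here, 3.33 (2.72 to 4.09), and the mitotic kinase Plk1 the smallest, 1.66 (1.35 to 2.03). Hmgb2, a chromatin protein abundant in dividing cells, was at 590.5 CPM in maternal obesity and 286 CPM in control. With cells thinned to 3000 UMIs, 55.0% of goblet cells in maternal obesity (46.4 to 63.4) and 35.0% in control (31.1 to 39.1) held at least 2 of the 21 genes. In other epithelial cells this was 79.7% in maternal obesity and 72.9% in control, and in fibroblast-gated cells 68.9% in maternal obesity and 65.5% in control. Goblet cells were below the other epithelial cells in both libraries, where the 21 genes summed to 2420.5 CPM in goblet cells and 3514 CPM in other epithelial cells of maternal obesity, and to 1100.2 and 2994 CPM in control. The goblet cells called as doublets numbered 2 of 180 in maternal obesity and 3 of 743 in control, and without called doublets the median was 1.26. The caller marked 2.11% of kept barcodes in maternal obesity and 0.712% in control, where 7.77% and 7.12% were expected, so fewer doublets were called than expected.

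**Figure D4:**
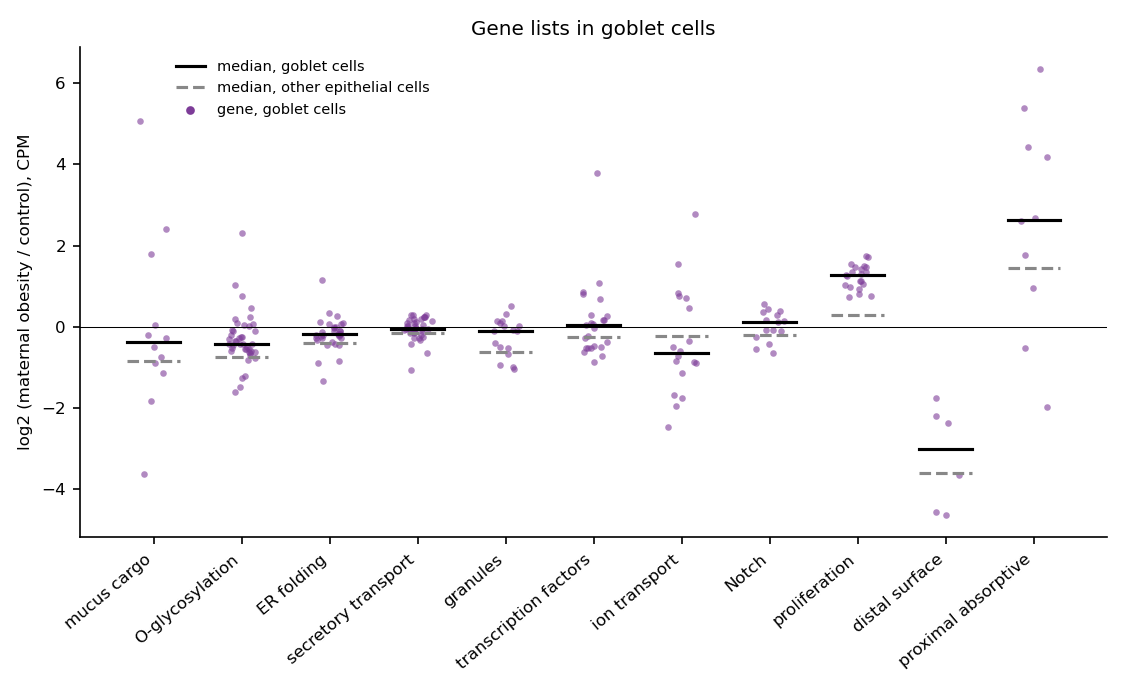
Log2 of CPM in maternal obesity over CPM in control (y axis) for each tested gene of 11 lists in goblet cells (points), with the median in goblet cells (black line) and in other epithelial cells (grey dashed line). All 21 proliferation genes lie above 0 with a median of 1.27, while the medians of the cargo (−0.39), O-glycosylation (−0.42), folding (−0.19) and granule (−0.10) lists lie nearer 0.

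The distal surface and proximal absorptive lists were drawn up from genes already seen to differ between the epithelia of these libraries, so their direction is not independent evidence. All 6 tested distal surface genes were lower in goblet cells of maternal obesity, with a median log2 ratio of −3.02, and −3.62 in other epithelial cells. Sftpd, a collectin that binds microbes, was at 35.5 CPM in maternal obesity and 186 CPM in control, and Scgb1a1, a secretoglobin better known from the airway, at 124 and 418 CPM. Of 10 proximal absorptive genes tested, 8 were at least 1.5-fold higher and 1 lower, with a median of 2.64. The peptidase Enpep was at 28.5 CPM in maternal obesity and 0.630 CPM in control, and Mttp, which loads lipid onto lipoproteins, at 16.1 and 0.840 CPM. Cps1, an enzyme of citrulline synthesis, had 49 UMIs in maternal obesity and 1 in control. These absorptive genes were no higher in goblet cells than in other epithelial cells of maternal obesity, where Enpep was at 30.5 CPM and Mttp at 19.0 CPM. With 1 library a group, the mothers' condition and the stretch of colon sampled cannot be told apart here.

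Among single genes with at least 100 UMIs and no more than 20% of the UMIs of the higher library in 1 cell, 12 higher and 12 lower genes with the firmest intervals were taken. Gate, haemoglobin, ribosomal, mitochondrial, sex-linked and unnamed genes were again left out. Of the 12 higher genes, 11 were also higher in other epithelial cells of maternal obesity, and 10 by at least 1.5-fold; all 12 lower genes were also at least 1.5-fold lower there. Sct, the hormone secretin, was at 291 CPM in goblet cells of maternal obesity and 36.4 CPM in control, a 7.99-fold difference (7.08 to 9.04), with UMIs in 79 and 103 cells. After thinning it was detected in 29.3% of goblet cells of maternal obesity (21.9 to 37.6) and 5.37% of control (3.68 to 7.54), against 1.14% and 0.517% of fibroblast-gated cells. In other epithelial cells Sct differed only 1.40-fold, at 45.8 CPM in maternal obesity and 32.7 CPM in control. Defensin-rich cells held more Sct than goblet cells in both libraries, at 332 CPM in maternal obesity and 112 CPM in control. Sct was highest in endocrine cells, at 3039 CPM in maternal obesity and 958 CPM in control. The 9 enteroendocrine markers outside the gate, which do not include it, summed to 17.6 CPM in goblet cells of maternal obesity and 48.5 CPM in control, and their part in the result was not tested. Igfbpl1, related to the insulin-like growth factor binding proteins, was the one gene of opposite direction outside the class. It was at 99.2 CPM in goblet cells of maternal obesity and 23.3 CPM in control, and at 17.6 and 25.4 CPM in other epithelial cells. In defensin-rich cells it was at 210.0 CPM in maternal obesity and 246 CPM in control.

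Lgals2, a galectin of the gut epithelium, was the most abundant of the higher genes, at 1289 CPM in goblet cells of maternal obesity and 245 CPM in control, and at 1214 and 589 CPM in other epithelial cells. Akr1b8, an aldo-keto reductase, was at 64.0 CPM in maternal obesity and 2.94 CPM in control, a 21.8-fold difference that other epithelial cells shared (20.4-fold). The glutathione transferase Mgst1 was 5.41-fold higher, the phosphatase inhibitor Ppp1r14d 5.57-fold, and Prkg2, a cyclic GMP-dependent kinase of intestinal secretion, 5.13-fold. Aldh1b1, a mitochondrial aldehyde dehydrogenase, was 4.50-fold higher, and Pclaf, a partner of the replication clamp PCNA, 4.12-fold. Reg4, Enpep and St3gal1 complete the 12.

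On the lower side, Vtcn1, a surface protein that restrains T cells, was at 3.11 CPM in goblet cells of maternal obesity and 40.6 CPM in control, 13.1-fold lower (7.39 to 25.5), with UMIs in 9 and 233 cells. Hspb1, a small heat shock protein, was at 9.07 CPM in maternal obesity and 116 CPM in control, and 54.3% of its 35 UMIs in maternal obesity came from 1 cell. Msln, the surface protein mesothelin, was 7.67-fold lower, Wfdc1 12.7-fold, and the proprotein convertase Pcsk6 14.3-fold (4.77 to 70.5), from 3 UMIs in maternal obesity and 106 in control. Upp1, uridine phosphorylase, was 9.56-fold lower, the membrane protein Tm4sf1 6.77-fold, the growth factor Hgf 6.55-fold and the mitochondrial protein Ndufa4l2 5.65-fold. Tm4sf1 and Hgf were also among the genes higher in goblet cells than in other epithelial cells, Hgf by 8.89-fold in maternal obesity and 15.9-fold in control. Retnla was 5.31-fold lower and Sftpd 5.25-fold lower.

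**Figure D5:**
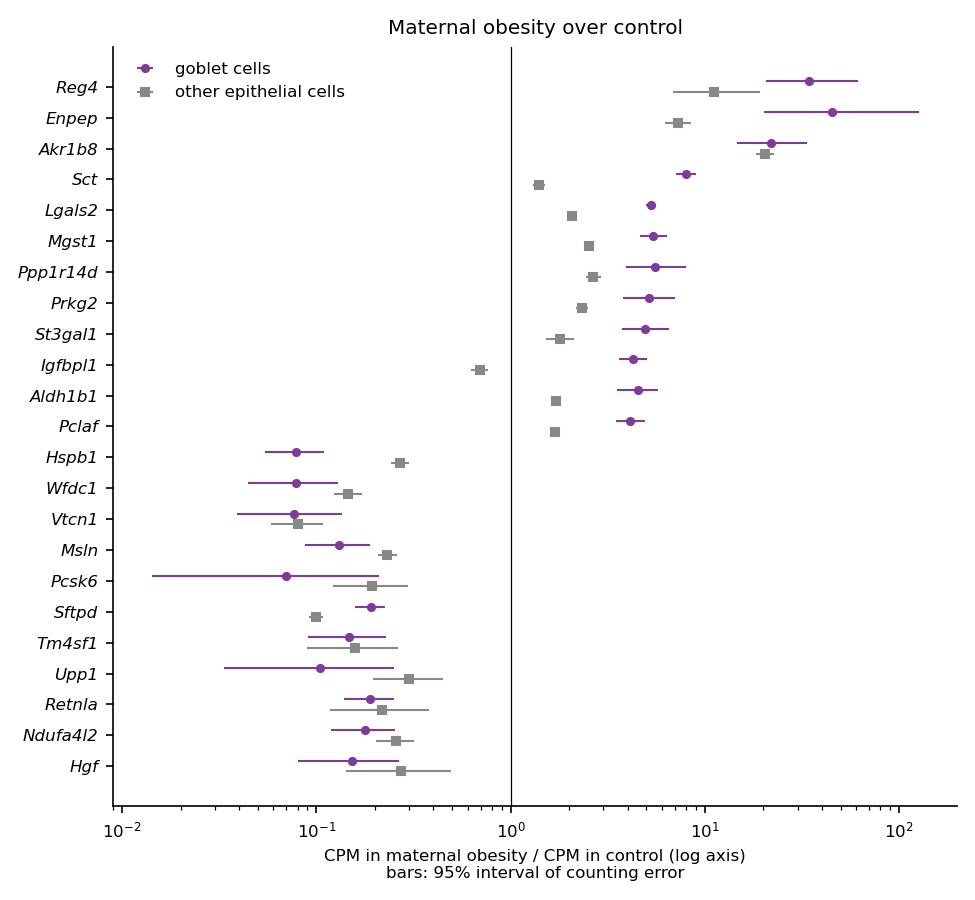
CPM in maternal obesity divided by CPM in control (x axis, log scale) for 23 genes in goblet cells (purple circles) and in other epithelial cells (grey squares), with bars for the 95% interval of counting error. Among the higher genes, Sct (7.99 in goblet cells and 1.40 in other epithelial cells) and Igfbpl1 (4.26 and 0.693) lie under 1.5 in other epithelial cells. The 11 lower genes lie below 1 in both, and defensin-rich cells are not drawn.

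Of 18 immediate early genes tested, which tissue dissociation can induce, 5 were at least 1.5-fold lower in goblet cells of maternal obesity and none higher, against 10.7% of all genes lower, with a median log2 ratio of −0.36. Atf3 was at 807 CPM in maternal obesity and 1563 CPM in control, and Btg2 at 1482 and 2921 CPM. The list summed to 9933 CPM in goblet cells of maternal obesity and 13651 CPM in control, and the part of these differences in the results above was not tested. Integrin and laminin genes had 1 of 20 higher and 6 lower, with a median of −0.29. Itgb4, an integrin chain that anchors epithelium to its basement membrane, was at 59.1 CPM in maternal obesity and 81.4 CPM in control. Il13ra1, a receptor chain for the cytokine that induces goblet genes in type 2 responses, was 2.07-fold lower (36.5 against 75.8 CPM). The chemokine Ccl20 was 2.55-fold higher (123 against 48.2 CPM).

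Lists of lipid and sterol genes (4 of 21 higher, 2 lower, median −0.07) and of glycolysis and hypoxia (2 of 20 higher, 3 lower, −0.36) had medians within 0.5 of 0. The 4 higher lipid genes were Fabp2, a fatty acid carrier of absorptive cells, Acaca and Cpt1a, which control fatty acid synthesis and oxidation, and Dgat2, which makes triglyceride. Dgat2 was at 27.2 CPM in maternal obesity and 11.0 CPM in control, and at 40.3 and 22.3 CPM in other epithelial cells.

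The class closest to goblet cells by the summed markers outside the gate was that of the 66 defensin-rich cells. With 39 in maternal obesity and 27 in control, the few cells limit this comparison. By the median log2 ratio of those markers it was not the closer in control, at 4.07 against 2.57 for other epithelial cells. In maternal obesity the medians were 2.11 and 3.34. Of 7656 genes, 1.88% were at least 2-fold higher in goblet cells in both libraries and 0.431% at least 2-fold lower. In maternal obesity alone 3.45% were higher and 1.02% lower, and in control alone 12.5% and 7.1%. Of the 5 markers outside the gate, 3 were at least 2-fold higher in goblet cells of maternal obesity and 4 in control. Retnlb was at 732 CPM in goblet cells and 17.9 CPM in defensin-rich cells of maternal obesity, and at 845 and 2.46 CPM in control. Clca1 was 11.7-fold higher in goblet cells of maternal obesity and 108-fold higher in control, the second against 2 UMIs. Anxa1, a phospholipid-binding protein that limits inflammation, was at 89.1 CPM in goblet cells and 0.850 CPM in defensin-rich cells of maternal obesity, and at 330.3 and 11.1 CPM in control. Scgb1a1 was 29.1-fold higher in maternal obesity and 48.5-fold higher in control, and Chst5 27.6-fold in maternal obesity and 35.6-fold in control, while Sftpd had no UMI in defensin-rich cells of either library. Abo3 had 217 UMIs in goblet cells and 1 in defensin-rich cells of maternal obesity, and 782 and 0 in control.

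Lower in goblet cells were Defa6, a defensin related to those of the gate, and 7 genes outside that family. Cftr was 2.56-fold lower than in defensin-rich cells in maternal obesity and 2.88-fold lower in control, and St3gal1 3.22-fold in maternal obesity and 9.15-fold in control. Igfbpl1 was 2.12-fold lower in maternal obesity and 10.6-fold lower in control, and the cell cycle genes Cdca7 (2.38-fold in maternal obesity and 4.03-fold in control) and Dlgap5 (2.42-fold in maternal obesity and 2.90-fold in control) were lower too. Sema3d, a guidance ligand, was 2.93-fold lower in maternal obesity and 7.56-fold lower in control, and Fam89a 2.88-fold in maternal obesity and 2.91-fold in control. Proliferation genes had a median log2 ratio of −0.51 in maternal obesity and −1.56 in control. Folding genes had medians of 0.021 in maternal obesity and 0.28 in control, and the transcription factors −0.024 and −0.011, nearer 0 than against the other epithelial cells.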

How the data were processed

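Cells of E19.5 fetal colon were profiled by droplet RNA sequencing, with 1 library from maternal obesity and 1 from control. The matrices deposited by the authors hold unnormalized UMI counts for each gene in each called barcode. Per the file headers they were made with cellranger 6.1.2, whereas version 2.1.1 of Cell Ranger stands in the submitters' processing notes. A genome build is named in neither. Total counts were 120811946 UMIs in maternal obesity and 103013814 in control.

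Muc2 was matched through a RefSeq synonym, as were 2 other listed genes, and 29 of 536 listed genes were not analysed here. Called doublets (Scrublet in scanpy 1.11.5; 153 barcodes in maternal obesity and 49 in control) were kept. UMIs were summed per class and library with python 3.11.15, numpy 2.4.6, scipy 1.17.1 and pandas 2.3.3. Ratios of CPM carry exact conditional binomial 95% intervals and shares exact Clopper-Pearson intervals, and 0.5 UMI was added to both sums for log2 ratios. All cover counting error only. The ratio calculation was tested on simulated data. Thinning drew 3000 UMIs per cell and left out 40 goblet cells of maternal obesity and 166 of control.

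The members and gene lists were chosen with earlier results of these data known. Genes named without a list were the 20 higher and 10 lower against other epithelial cells, the 12 each way between libraries (at least 100 UMIs) and the 8 each way against defensin-rich cells whose interval bounds lay farthest from 1. Further list members were named after their values were seen. Some genes that met the rule are not reported here.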

Additional observations from a re-analysis of the deposited data

Results flagged for a closer look

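For 9 of 456 genes compared, the ratio of goblet to other epithelial cells lay above 1 in one library and below 1 in the other, with counting intervals on opposite sides of 1. The difference between the libraries was not tested, and with 1 library a group it has no replicate check. Values are the log2 ratio in maternal obesity minus that in control.

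Lgals2, the galectin, differed by 1.35, with a goblet level 1.06-fold that of other epithelial cells in maternal obesity and 0.416-fold in control. Scgb1a1, the secretoglobin, differed by 0.84, from ratios of 1.68 in maternal obesity and 0.938 in control. Spcs2, a subunit of signal peptidase, differed by 0.41, from ratios of 1.26 in maternal obesity and 0.945 in control. Kcnq1, a potassium channel, differed by 2.34, from ratios of 2.39 (1.16 to 4.58) in maternal obesity and 0.474 (0.198 to 0.979) in control. It rests on 12 goblet UMIs in maternal obesity and 8 in control. Slc16a3, a lactate carrier, differed by −0.82, from ratios of 0.695 in maternal obesity and 1.23 in control, and Ldha, lactate dehydrogenase, by −0.092, from ratios of 0.954 in maternal obesity and 1.02 in control.

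The other 3 involve markers of other cell types. Neurog3 differed by 4.01, from ratios of 3.49 in maternal obesity and 0.217 in control, and rests on 4 goblet cells in maternal obesity and 3 in control. Cd74, the invariant chain of antigen-presenting cells, differed by 2.53, with 54.2% of its goblet UMIs in 1 cell in maternal obesity and 67.4% in control. Des, the muscle protein desmin, differed by 2.61, from ratios of 3.14 in maternal obesity and 0.513 in control, while smooth muscle markers summed to 54.2 CPM in goblet cells of maternal obesity and 63.6 CPM in control.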

How the results depend on the processing

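Raising the gate to 10 or 20 per 10,000 gave goblet shares of 6.64% and 3.01% in maternal obesity and 15.0% and 8.29% in control, and Fcgbp alone gave 7.64% and 13.9%. Genes at least 2-fold higher than in other epithelial cells in both libraries (505) numbered 817 at 20 per 10,000, 951 with no UMI minimum and 323 with 200 UMIs. Those lower (369) numbered 638 at 10, 1260 at 20 per 10,000, 768 with equal weight per cell, 2002 with no minimum and 150 with 200 UMIs. Against defensin-rich cells, 33 lower genes became 60 at 10 and 241 at 20 per 10,000. Genes higher in maternal obesity (1442) numbered 462 at 20 per 10,000, 3657 with no minimum and 649 with 200 UMIs, and those lower (1036) 716 at 20 per 10,000, 3242 with no minimum and 563 with 200 UMIs.

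The proliferation median (1.27) was 1.83 at 10, 1.94 at 20 per 10,000 and 1.51 with Fcgbp alone. The folding median (−0.19) was −0.084 at 10, −0.031 at 20 per 10,000 and −0.10 with equal weight. The O-glycosylation median (−0.42) was −0.57 with Fcgbp alone, −0.16 with equal weight and 0.063 at 20 per 10,000, where the median of the 5 markers was 0.069.

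A reversal was counted only where the main value was at least 1.5-fold between libraries or 2-fold against other epithelial cells. Spdef, given above, changed sign from a smaller difference and was not counted. Among those counted, signs turned for Creb3l4 (0.12 at 20 per 10,000) and Foxa1 (0.15 with equal weight) between libraries. Against other epithelial cells they turned for Neurog3 in maternal obesity (−4.57 at 10, −2.72 at 20 per 10,000), Ccl5 in maternal obesity (3.96, gate after thinning) and Tff1 in control (−1.76, Fcgbp alone). The cause was not tested. Of 1806 values of single genes against other epithelial cells, 1457 moved by less than their interval, 345 by more and 4 reversed; between libraries these were 686, 100 and 2 of 788. Fcgbp alone, leaving out shared barcodes and the 3000 UMI minimum were chosen after seeing the data. Depth limits genes under 50 UMIs, and in each contrast the class with more UMIs reaches that minimum at a lower CPM. No paired analysis was possible because there is 1 library per group and the replicate numbers are not shared.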
